A study of Mus musculus with 8 samples.

Results

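The CDK inhibitors and D cyclins described here are 9 genes, chosen by symbol: the D cyclins Ccnd1, Ccnd2 and Ccnd3, the Cip/Kip inhibitors Cdkn1a and Cdkn1b, and the Ink4 inhibitors Cdkn2a, Cdkn2b, Cdkn2c and Cdkn2d. They were read by 15 of the 55661 probes analysed, and 8 of the 9 genes passed the filter on dim probes, among 23231 features that did. A probe passed when its signal was well above background, by the scanner software's own mark, on at least 2 of the 8 arrays. Cdkn2b did not pass.

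Sorted bone marrow cells of mice aged 6 weeks, of mixed strain (B6/CBA and others), were hybridised to 8 one-colour Agilent arrays in 4 groups of 2. The groups were Vav-Etv2 KSL cells, control KSL cells, Vav-Etv2 Gr cells and control Gr cells, and no treatment followed the sort. KSL cells carry c-Kit and Sca-1 without lineage markers, a fraction that holds blood stem and progenitor cells, and Gr cells are the Gr-1+/Mac-1+ fraction of granulocytes and their late precursors. Vav-Etv2 mice carry, by their name, the ETS factor Etv2 under the Vav promoter, which is active throughout the blood system, so both cell types of these mice carry the transgene. The labels do not say what alleles the control mice carry, or whether an array holds 1 animal or a pool, so the p-values speak only of the spread between the arrays. Levels are log2 signals relative to the array's 75th percentile. Calls rest on limma, with p-values adjusted by Benjamini and Hochberg's method over all 23231 features and a threshold of 0.05.

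D cyclins are made when a growth signal arrives. They bind Cdk4 or Cdk6, and the complex phosphorylates the retinoblastoma protein, which releases E2F factors and lets the cell pass from G1 into S phase. Ink4 proteins bind Cdk4 and Cdk6 and block them, whereas Cip/Kip proteins act on a wider set of cyclin complexes, and in blood stem cells several of these inhibitors are known for holding cells in quiescence.

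The 75th percentile of the signal lay between 195 and 266 on the KSL arrays and between 136 and 301 on the Gr arrays, and 0 spots were saturated. All 9 of the 9 progenitor markers were well above background in every KSL array, with a summed signal of 258 to 273 times the array's 75th percentile in Vav-Etv2 KSL cells and 314 to 341 in control KSL cells. In Gr cells the sum was 31.6 to 87.8 for Vav-Etv2 and 32.9 to 78.7 for control. Ly6a, the Sca-1 gene among these markers, went the other way and was higher in Gr cells. Its levels were 6.33 and 4.49 in Vav-Etv2 Gr cells and 6.18 and 4.47 in control Gr cells. In KSL cells they were 2.25 and 3.09 for Vav-Etv2 and 3.65 and 3.59 for control. All 10 measured markers of mature granulocytes, of 11 listed, were well above background on all 8 arrays. Their sum was 4348 to 8304 in Vav-Etv2 Gr cells and 4335 to 9625 in control Gr cells. In KSL cells it was 244 and 1627 in Vav-Etv2 replicates 1 and 2 and 1517 to 1632 in the controls, so Vav-Etv2 KSL replicate 1 stood apart. Monocyte and macrophage markers summed to 149 and 195 in Vav-Etv2 Gr cells and 115 and 159 in control Gr cells. On the KSL arrays their sum lay between 22.03 and 46.2. Etv2 was well above background in all 4 Vav-Etv2 arrays, at 0.19 and -1.24 in KSL cells and -0.55 and -1.30 in Gr cells. It was not well above background in control KSL cells or Gr control 1, but it was in the array labelled Gr control 2, at -0.55, which goes against that label. The Gr replicate numbers also divided the arrays by sex and by marker sums. Xist was well above background in replicate 1 of both Gr groups and on all KSL arrays. Ddx3y, on the Y chromosome, was so in replicate 2 of both Gr groups. In Gr replicates 1 and 2 the early myeloid markers summed to 179 and 1001 in control cells and 136 and 656 in Vav-Etv2 cells. Mast cell and eosinophil markers summed to 3.46 and 77.9 in control cells and 6.13 and 37.0 in Vav-Etv2 cells. Where the array labelled Gr control 2 is left out below, Gr control 1 alone faces Vav-Etv2 Gr replicates 1 and 2, so these gaps enter the difference. KSL arrays lay in 1 row of the slide and Gr arrays in another, so slide row and cell type cannot be told apart.

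The D cyclins divided by cell type. Ccnd1 and Ccnd2 were higher in KSL cells and Ccnd3 was higher in Gr cells, in both genotypes. Ccnd2, which encodes cyclin D2, was read on chromosome 6 of build mm9 at 127098696 to 127098755. It stood at 3.99 and 3.88 in Vav-Etv2 KSL cells, at 3.79 and 3.90 in control KSL cells, at -0.35 and -0.71 in Vav-Etv2 Gr cells and at -0.22 and 0.22 in control Gr cells. All 4 KSL arrays lay far above all 4 Gr arrays, and within KSL cells the genotypes overlapped. The KSL minus Gr difference was 4.47 in Vav-Etv2 mice (22.1-fold, SE 0.30, limma adjusted p = 0.000986) and 3.85 in control mice (14.4-fold, SE 0.30, limma adjusted p = 0.000924). In bulk samples, fewer cells of a type and less RNA per cell cannot be told apart.

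Ccnd1, which encodes cyclin D1, was read on mm9 chromosome 7 at 152116202 to 152116261. It stood at 3.29 and 3.11 in Vav-Etv2 KSL cells, at 2.04 and 2.37 in control KSL cells, at -0.59 and -0.66 in Vav-Etv2 Gr cells and at -1.47 and -1.24 in control Gr cells. The 4 groups followed each other in that order with no overlap. KSL minus Gr was 3.82 in Vav-Etv2 mice (14.2-fold, SE 0.28, limma adjusted p = 0.00107) and 3.55 in control mice (11.7-fold, SE 0.28, limma adjusted p = 0.000946).

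Ccnd3, which encodes cyclin D3, ran the other way. The probe used, on mm9 chromosome 17 at 47736579 to 47736638, read 6.68 and 6.62 in Vav-Etv2 KSL cells, 5.95 and 6.04 in control KSL cells, 8.48 and 7.97 in Vav-Etv2 Gr cells and 8.69 and 7.87 in control Gr cells. The Gr arrays all lay above the KSL arrays, and the Gr genotypes overlapped. KSL minus Gr was -1.57 in Vav-Etv2 mice (SE 0.37, limma adjusted p = 0.0246) and -2.29 in control mice (SE 0.37, limma adjusted p = 0.00601). The second Ccnd3 probe, at 47736267 to 47736326, gave -1.59 in Vav-Etv2 mice (limma adjusted p = 0.0265) and -2.39 in control mice (limma adjusted p = 0.00570), with all probes tested one by one. The call in Vav-Etv2 mice was lost in 6 of 19 alternative analyses, with no filter (limma adjusted p = 0.0527) and without either KSL control (0.0585), Vav-Etv2 KSL replicate 1 (0.103) or 2 (0.102), or Vav-Etv2 Gr replicate 1 (0.121). In control mice it was lost without KSL control 1 (limma adjusted p = 0.0509).

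The Cip/Kip inhibitors also ran in opposite directions between the cell types of control mice. Cdkn1b, which encodes p27, a brake on the cyclin E and Cdk2 complex, was lower in KSL than in Gr cells. It was read on mm9 chromosome 6 at 134875424 to 134875483 and stood at 2.89 and 3.48 in Vav-Etv2 KSL cells, 2.88 and 3.21 in control KSL cells, 5.06 and 4.30 in Vav-Etv2 Gr cells and 5.53 and 4.25 in control Gr cells. The KSL arrays all lay below the Gr arrays, and the genotypes overlapped in each cell type. KSL minus Gr was -1.50 in Vav-Etv2 mice (SE 0.51, limma adjusted p = 0.0747) and -1.85 in control mice (SE 0.51, limma adjusted p = 0.0327). The control difference was -1.21 with Gr control 1 left out (limma adjusted p = 0.135) and -2.49 with the array labelled Gr control 2 left out (limma adjusted p = 0.0128). The call was lost in 5 of 19 alternatives. These were no filter, only the control arrays, and leaving out Gr control 1, KSL control 1 or KSL control 2. The second Cdkn1b probe, at 134873606 to 134873665, gave -0.25 in Vav-Etv2 mice (limma adjusted p = 0.690) and -1.51 in control mice (limma adjusted p = 0.0365), so the probes differed in Vav-Etv2 cells. The first probe passed in Vav-Etv2 mice without Gr control 1 or without the array labelled Gr control 2 (limma adjusted p = 0.0353 for both).

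Cdkn1a encodes p21, a target of p53 that blocks Cdk2 after DNA damage. Its probe on mm9 chromosome 17 at 29237377 to 29237436, printed in 10 spots, read 1.61 and 1.65 in Vav-Etv2 KSL cells, 2.51 and 2.47 in control KSL cells, 1.74 and 1.18 in Vav-Etv2 Gr cells and 0.32 and 1.65 in control Gr cells. Control KSL cells were the highest group, with replicates 0.04 apart, while the Gr control arrays lay 1.32 apart. KSL minus Gr was 0.17 in Vav-Etv2 mice (SE 0.47, limma adjusted p = 0.806) and 1.50 in control mice (SE 0.47, limma adjusted p = 0.0462). The control call was lost in 11 of 19 alternatives, with values from 0.84 without Gr control 1 (limma adjusted p = 0.163) to 2.16 with the array labelled Gr control 2 left out (limma adjusted p = 0.00927). Leaving out any of the other 6 arrays also lost it, with limma adjusted p between 0.0547 and 0.169. A second Cdkn1a probe, at 29235299 to 29235358, gave 0.61 in Vav-Etv2 mice (limma adjusted p = 0.520) and 0.76 in control mice (limma adjusted p = 0.402). Another, at 29227986 to 29228045, was not well above background on any array.

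Among the Ink4 inhibitors, Cdkn2d was the one that differed between cell types past the threshold. Cdkn2d encodes p19Ink4d and was read on mm9 chromosome 9 at 21092934 to 21092993. It stood at 3.82 and 4.18 in Vav-Etv2 KSL cells, 3.86 and 4.11 in control KSL cells, 7.08 and 6.42 in Vav-Etv2 Gr cells and 7.17 and 6.47 in control Gr cells. The KSL arrays lay far below the Gr arrays, and the genotypes overlapped in both cell types. KSL minus Gr was -2.75 in Vav-Etv2 mice (6.72-fold lower, SE 0.38, limma adjusted p = 0.00520) and -2.84 in control mice (7.16-fold lower, SE 0.38, limma adjusted p = 0.00371). Vav-Etv2 KSL replicates 1 and 2, with granulocyte marker sums of 244 and 1627, read 3.82 and 4.18. KSL controls 1 and 2, with sums of 1632 and 1517, read 3.86 and 4.11. The part of granulocytes in the Cdkn2d values was not tested.

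Cdkn2c encodes p18Ink4c, known for restraining the self-renewal of blood stem cells in mice. Its probe on mm9 chromosome 4 at 109333508 to 109333567 read 0.91 and 1.87 in Vav-Etv2 KSL cells, 1.90 and 2.06 in control KSL cells, 2.50 and 2.38 in Vav-Etv2 Gr cells and 2.42 and 2.37 in control Gr cells. The KSL arrays lay below the Gr arrays, and Vav-Etv2 KSL replicate 1 was the lowest. KSL minus Gr was -1.06 in Vav-Etv2 mice (SE 0.37, limma adjusted p = 0.0781) and -0.42 in control mice (SE 0.37, limma adjusted p = 0.397), neither past the threshold. In Vav-Etv2 mice it was -0.58 without KSL replicate 1 and -1.53 without KSL replicate 2 (limma adjusted p = 0.0471).

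Cdkn2a and Cdkn2b lie side by side on chromosome 4 and encode p16Ink4a with p19Arf, and p15Ink4b. Both Cdkn2a probes list the transcripts of both products, so p16Ink4a and p19Arf were not separated. The probe at 88920405 to 88920464 was well above background in replicate 1 of each KSL genotype and nowhere else, and passed the filter through KSL cells. It read -0.80 and -4.21 in Vav-Etv2 KSL cells, -2.01 and -4.89 in control KSL cells, -4.39 and -6.79 in Vav-Etv2 Gr cells and -5.89 and -6.09 in control Gr cells. KSL replicates lay 2.89 to 3.40 apart, more than the genotypes did. No fold or test between KSL and Gr cells is given for it, because it entered the table only through KSL arrays and was well above background on no Gr array. The other Cdkn2a probe, at 88920543 to 88920602, was not well above background on any array, nor was the Cdkn2b probe at 88952720 to 88952779. The Cdkn2b probe at 88952276 to 88952335 was well above background in Vav-Etv2 KSL replicate 1 alone, at -1.70, and at -6.60 in replicate 2.

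**Figure D1:**
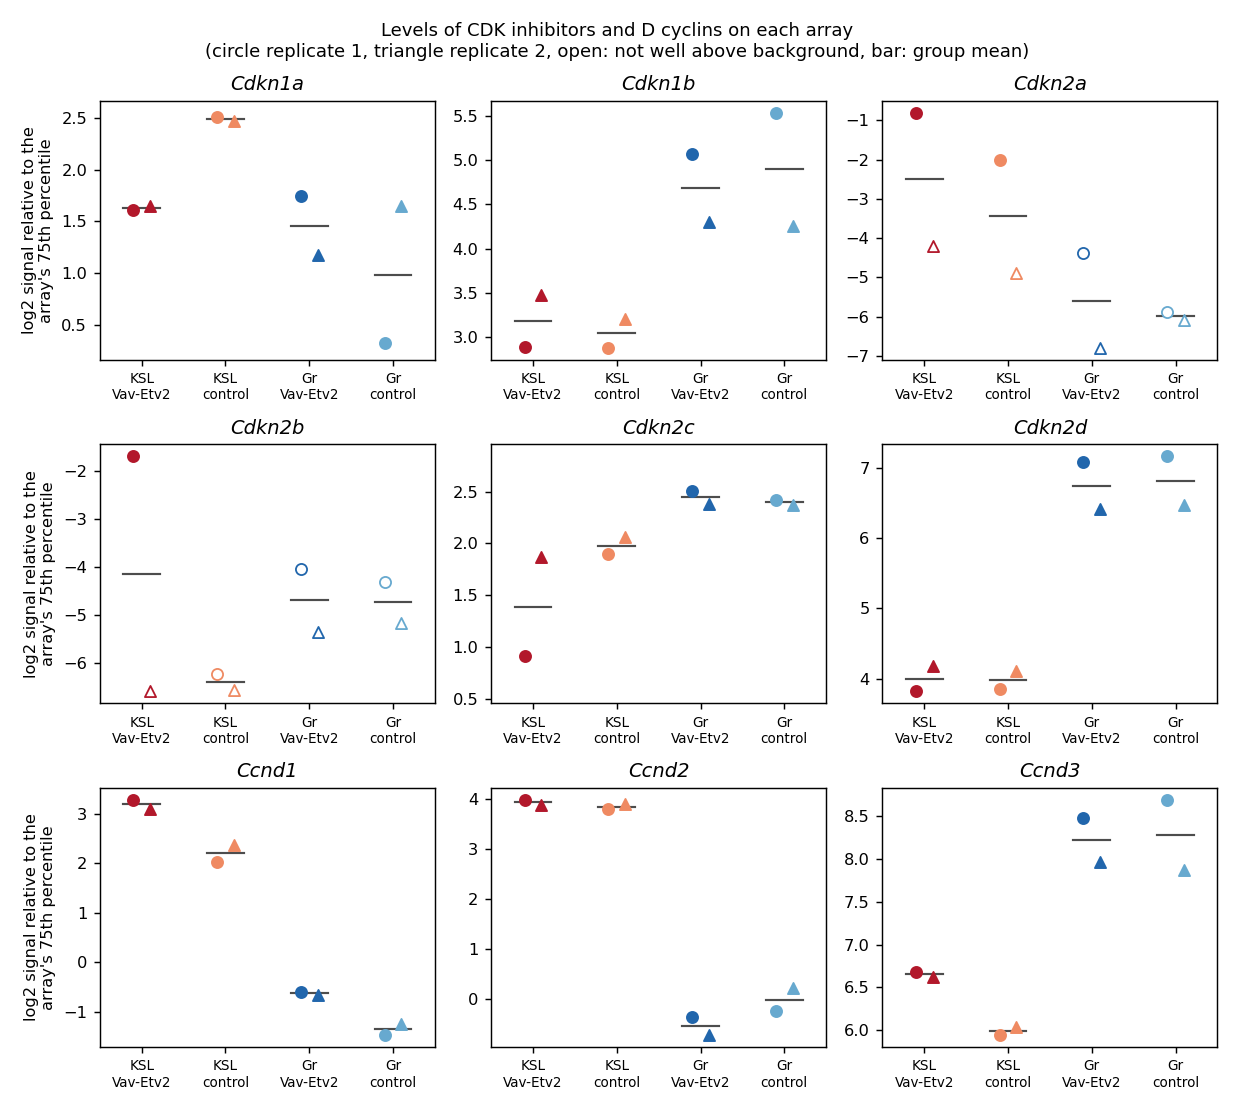
Level of each member on each array, as log2 signal relative to the array's 75th percentile (vertical axis, a different range for each gene), by group; circles are replicate 1, triangles replicate 2, open symbols are not well above background and bars are group means of 2 arrays. Ccnd1 and Ccnd2 are high in KSL cells, Ccnd3, Cdkn1b and Cdkn2d are high in Gr cells, and Cdkn2a and Cdkn2b are near background on most arrays.

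Cdkn2a is left out of the counts between KSL and Gr cells. Of the 7 members well above background in both cell types, 2 were higher and 2 lower in KSL than in Gr cells of Vav-Etv2 mice, and 3 were higher and 3 lower in control mice. Over all features, 24.3% were called in Vav-Etv2 mice (10.5% higher and 13.8% lower) and 34.7% in control mice (16.3% higher and 18.5% lower). The arrays of KSL and Gr cells did not overlap for 6 of the 7 in Vav-Etv2 mice, where 69.8% of all features did not overlap, and for 7 in control mice, where 75.3% did not. The median difference of the 7 was -1.06 in Vav-Etv2 mice, against -0.10 over all features, and -0.42 in control mice, against -0.13 over all features. Ccnd1, Ccnd2 and Cdkn2d kept their calls in both genotypes under all 19 alternative analyses of each comparison. With the array labelled Gr control 2 left out, 5 members were called in Vav-Etv2 mice, against 31.4% of all features, and 6 in control mice, against 40.4%. Without Vav-Etv2 KSL replicate 1 there were 3 in Vav-Etv2 mice, against 9.66% of all features, and 5 in control mice, against 28.7%. With each array scaled to its median, the share of called features that were higher was 34% instead of 43.1% in Vav-Etv2 mice and 35.9% instead of 46.8% in control mice.

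**Figure D2:**
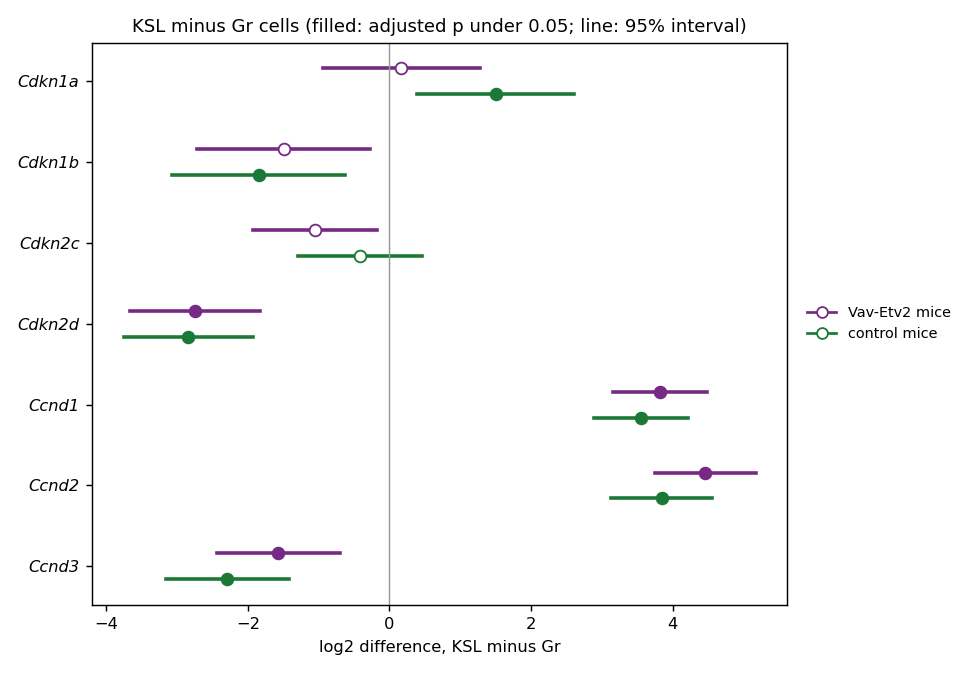
Difference in level between KSL and Gr cells for the 7 members well above background in both cell types (horizontal axis, log2, KSL minus Gr), in Vav-Etv2 mice (upper symbol of each pair) and control mice (lower symbol); lines are 95% intervals from limma with 2 arrays a group, and filled symbols have an adjusted p under 0.05. Ccnd1 and Ccnd2 sit between 3.55 and 4.47, and Cdkn2d sits near -2.75 and -2.84.

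Promoter windows of the 3 members that were called lower in KSL than in Gr cells of control mice are shown, to set their sequence beside a shared direction. They are the 250 bases before a transcript start in RefSeq, build GRCm38.p6 (the probe positions above are on mm9). Capitals mark the long ETS motif CCGGAAG and the CCAAT box, in either orientation. The Ccnd3 window, on the plus strand at chr17:47593217-47593466, is the second of 2 for that gene. The first, at chr17:47504801-47505050, holds neither of these motifs and is not shown. The Cdkn1b window lies on the plus strand at chr6:134920151-134920400 and the Cdkn2d window on the minus strand at chr9:21291210-21291459.
Ccnd3: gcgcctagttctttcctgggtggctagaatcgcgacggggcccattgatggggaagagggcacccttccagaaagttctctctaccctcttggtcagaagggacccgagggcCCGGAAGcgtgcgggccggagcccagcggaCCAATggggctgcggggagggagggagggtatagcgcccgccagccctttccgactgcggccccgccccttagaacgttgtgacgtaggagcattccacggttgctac
Cdkn1b: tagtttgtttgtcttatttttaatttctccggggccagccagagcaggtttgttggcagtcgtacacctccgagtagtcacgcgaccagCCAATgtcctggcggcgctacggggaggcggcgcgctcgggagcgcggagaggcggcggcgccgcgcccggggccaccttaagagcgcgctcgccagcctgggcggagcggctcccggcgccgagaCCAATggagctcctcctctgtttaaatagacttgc
Cdkn2d: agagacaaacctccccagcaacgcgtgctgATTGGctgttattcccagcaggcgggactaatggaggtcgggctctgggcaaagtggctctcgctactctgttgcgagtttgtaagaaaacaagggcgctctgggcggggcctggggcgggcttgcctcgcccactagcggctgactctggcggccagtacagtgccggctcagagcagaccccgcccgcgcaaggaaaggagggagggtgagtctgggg

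The long ETS motif CCGGAAG stood once in this Ccnd3 window, 138 bases before the start. It was in 6.91% of 32851 mouse windows of the same length. CCGGAAG was in none of the other 10 windows found for 7 of the 9 members. Shorter ETS motifs were not searched, so nothing is said of them. CCAAT, the box bound by NF-Y, stood once in the second Ccnd3 window and the Cdkn2d window and 2 times in that of Cdkn1b. It was in no other member window, the first Ccnd3 window included, and in 33.8% of all windows. No window was found for Ccnd1 or Ccnd2, the members called higher in KSL cells of both genotypes. For that reason the windows do not show whether CCAAT goes with direction. The E2F letters TTTNNCGC stood once in each of the 2 Cdkn2a windows, against 4.28% of all windows. The C/EBP letters TTGCNNAA (9.56% of all) and TATAAA (12.4% of all) were in no member window. Both strands were searched, and the matches did not overlap. A match is a description of the letters only.

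The Vav-Etv2 comparison asks whether the transgene goes with other levels of these genes in the same cell type. None of the 8 members tested passed the threshold in KSL cells, in Gr cells or for the difference between these effects. Over all features, 0.0172% were called in KSL cells, 0.00861% in Gr cells and 0.0043% for the difference. At an unadjusted p under 0.05 there was 1 member of 8 in KSL cells (7.42% of all features), 1 in Gr cells (1.27%) and 0 for the difference (3.9%), and in both cell types that member was Ccnd1.

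For Ccnd1 both Vav-Etv2 arrays read above both control arrays in each cell type. Vav-Etv2 minus control was 1.00 in KSL cells (SE 0.28, limma adjusted p = 0.419) and 0.73 in Gr cells (SE 0.28, limma adjusted p = 1.00). Within replicate numbers 1 and 2 it was 1.25 and 0.74 in KSL cells and 0.87 and 0.58 in Gr cells, and it was 0.84 in Gr cells when the array labelled Gr control 2 was left out. The KSL effect minus the Gr effect was 0.27, with a 95% interval from -0.68 to 1.22. For Ccnd3 in KSL cells Vav-Etv2 minus control was 0.66 on the probe used (95% interval -0.21 to 1.53, limma adjusted p = 0.856) and 0.77 on the second probe (limma adjusted p = 0.797), and the groups did not overlap on either. In Gr cells the Ccnd3 difference was -0.06 (95% interval -0.93 to 0.81), and within the replicate numbers it was -0.22 and 0.09. The summed signal of the 8 B lineage markers, relative to the 75th percentile, was 114 and 146 in Vav-Etv2 KSL cells and 38.4 and 39.1 in control KSL cells. In Gr cells it was 31.4 and 7.81 for Vav-Etv2 and 10.1 and 6.84 for control, with replicate 1 given first. Between 7 and 8 of these markers were well above background on each array, and Pax5 was not on 5 of the 8. Marker sums of monocytes and macrophages, erythroid cells and stroma also did not overlap between the KSL genotypes. Those of monocytes and macrophages were 41.2 and 46.2 in Vav-Etv2 cells and 22.03 and 23.7 in control cells. The median levels of the same markers did overlap, at -1.83 and -0.52 in Vav-Etv2 cells and -1.36 and -1.07 in control cells. Erythroid sums were 18.3 and 25.1 in Vav-Etv2 cells and 42.4 and 39.6 in control cells. Stroma sums were 6.27 and 6.75 in Vav-Etv2 cells and 12.0 and 9.89 in control cells. In Vav-Etv2 KSL replicate 1 alone the 7 endothelial markers summed to 52.2, against 10.6 to 15.01 on the other KSL arrays, and the 4 megakaryocyte markers to 144.5, against 37.5 to 74.0. The part of these cell types in the Ccnd1 and Ccnd3 values was not tested. Ccnd2 differed by 0.09 in KSL cells (95% interval -0.62 to 0.80) and by -0.53 in Gr cells (95% interval -1.24 to 0.18), where the within-number values were -0.13 and -0.93.

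Of the inhibitors, Cdkn1a differed by -0.86 in KSL cells, Vav-Etv2 minus control (95% interval -1.97 to 0.25, limma adjusted p = 0.846). The groups did not overlap, and within the replicate numbers the differences were -0.90 and -0.82. The second Cdkn1a probe gave -0.16 (limma adjusted p = 1.00), so the size was not shared between probes. In Gr cells the Cdkn1a difference was 0.47, with 1.42 and -0.47 within the replicate numbers and 1.13 without the array labelled Gr control 2. The KSL effect minus the Gr effect was -1.33 (SE 0.66, limma adjusted p = 1.00). For Cdkn2c the KSL difference was -0.59 (limma adjusted p = 0.908), and without Vav-Etv2 KSL replicate 1, the array with the low granulocyte marker sum, it was -0.11. Cdkn2d differed by 0.02 in KSL cells (95% interval -0.90 to 0.93) and -0.07 in Gr cells (95% interval -0.99 to 0.84). Cdkn1b differed by 0.14 in KSL cells and -0.21 in Gr cells, and its second probe gave 0.83 in KSL cells (limma adjusted p = 0.831). With the array labelled Gr control 2 left out, the Gr differences were -0.85 for Cdkn1b, -0.42 for Cdkn2d and 0.02 for Cdkn2c. For Ccnd2 and Ccnd3 they were -0.31 and -0.47. Gr control 1 then stands alone against Vav-Etv2 Gr replicates 1 and 2, so the gap between replicate numbers enters these values. The groups did not overlap for 4 of 8 members in KSL cells, where 51.5% of all features did not overlap, and for 2 of 8 in Gr cells, where 11.6% did not.

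**Figure D3:**
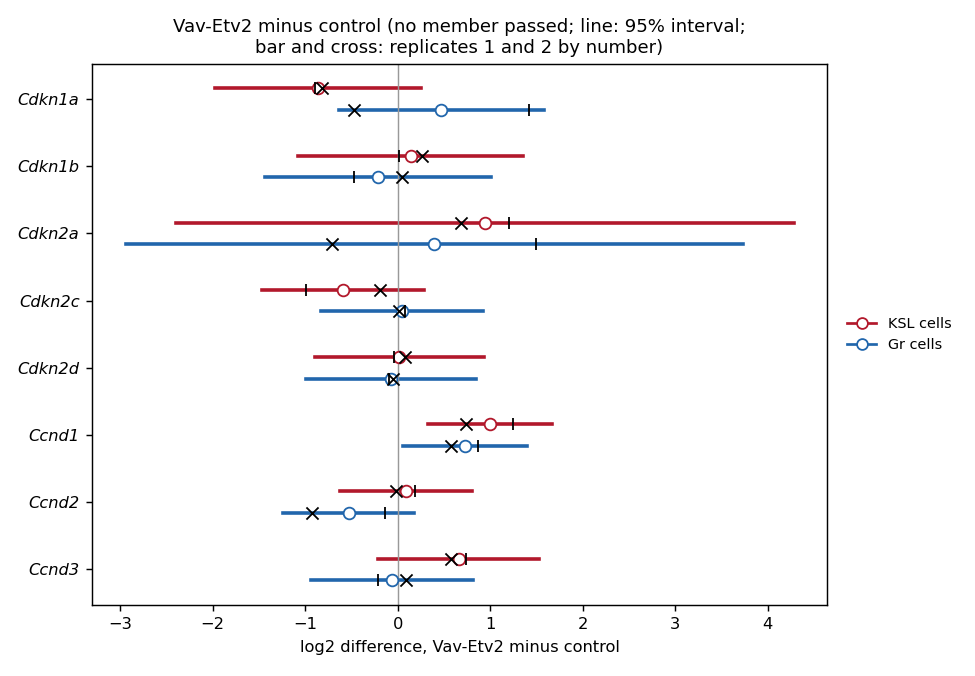
Difference in level between Vav-Etv2 and control cells for the 8 members tested (horizontal axis, log2, Vav-Etv2 minus control), in KSL cells (upper symbol) and Gr cells (lower symbol); lines are 95% intervals from limma, and the bar and cross are the differences within replicate numbers 1 and 2. Ccnd1 lies above 0 in both cell types, at 1.00 and 0.73, and no member passed the threshold.

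Genes that work with the members were taken from lists of G1/S partners, upstream regulators, proliferation genes and p53 targets. Of 26 G1/S partners 24 were measured, and none was called for Vav-Etv2 in either cell type. Between KSL and Gr cells 5 were higher and 4 lower in Vav-Etv2 mice, where 24.3% of all features were called, and 6 were higher and 4 lower in control mice, where 34.7% were. The list's median difference was 0.48 in Vav-Etv2 mice, against -0.10 over all features, and 0.52 in control mice, against -0.13. Without Vav-Etv2 KSL replicate 1 the counts in Vav-Etv2 mice were 3 higher and 1 lower (9.66% of all features called), and with the array labelled Gr control 2 left out the counts in control mice were 8 higher and 3 lower (40.4% of all features called). The kinases that D cyclins bind were both higher in KSL cells: Cdk6 by 2.95 in Vav-Etv2 mice (limma adjusted p = 0.00337) and 2.40 in control mice (limma adjusted p = 0.00457), and Cdk4 by 2.40 in Vav-Etv2 mice (limma adjusted p = 0.0478) and 2.54 in control mice (limma adjusted p = 0.0316). Rb1, the retinoblastoma protein they phosphorylate, was lower in KSL cells, with differences of -1.29 in Vav-Etv2 mice and -1.52 in control mice. E2f2, a factor of S phase entry, was lower too, with -2.36 in Vav-Etv2 mice and -3.26 in control mice. Mycn, a growth-promoting factor of the Myc family, read 1.89 to 2.49 in Vav-Etv2 KSL cells and 2.33 to 2.54 in control KSL cells. It was well above background on neither Vav-Etv2 Gr array and on 1 of the 2 control Gr arrays, so no fold is given. The counts above with all 8 arrays include its calls, and nothing is read from them. Myc was higher by 4.03 in KSL than in Gr cells of Vav-Etv2 mice. Cdkn1c, the remaining Cip/Kip inhibitor, was higher in KSL cells of control mice by 2.18 (limma adjusted p = 0.00365). It stood at -0.76 and -1.27 in Vav-Etv2 KSL cells and at 0.45 and 0.54 in control KSL cells, a difference of -1.52 (SE 0.29, limma adjusted p = 0.214).

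**Figure D4:**
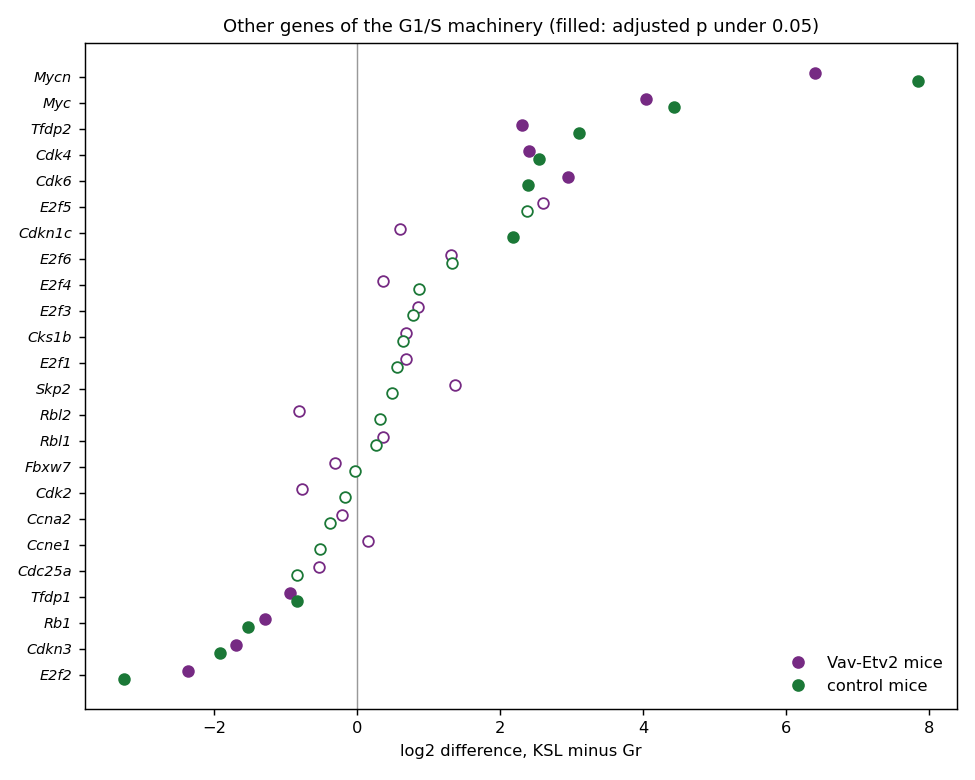
Difference in level between KSL and Gr cells for the 24 measured G1/S partners (horizontal axis, log2, KSL minus Gr), in Vav-Etv2 mice (upper symbol) and control mice (lower symbol); filled symbols have a limma adjusted p under 0.05. Mycn, Myc, Cdk6 and Cdk4 lie on the KSL side, and E2f2, Cdkn3 and Rb1 on the Gr side. Mycn was not well above background on most Gr arrays.

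Of 26 upstream regulators 24 were measured, and 5 were higher and 4 lower in KSL than in Gr cells in each genotype. Over all features 24.3% were called in Vav-Etv2 mice and 34.7% in control mice, so the list's share in control mice lay near that of all features. The list's median was -0.13 in Vav-Etv2 mice, against -0.10 over all features, and 0.26 in control mice, against -0.13. Without Vav-Etv2 KSL replicate 1 the counts in Vav-Etv2 mice were 1 higher and 2 lower, with 9.66% of all features called. With the array labelled Gr control 2 left out, those in control mice were 7 higher and 3 lower, with 40.4% of all features called. Hmga2, known to hold down the Cdkn2a products in mouse neural stem cells, was higher by 1.95 in Vav-Etv2 mice and 3.00 in control mice. The Polycomb subunit gene Phc1 was higher by 1.44 in Vav-Etv2 mice and 1.92 in control mice, and Pcgf2, of the same complex, by 2.62 in Vav-Etv2 mice and 2.71 in control mice, although 1 of the 2 Gr arrays of each genotype was not well above background for Pcgf2. Bmi1, the Polycomb repressor of Cdkn2a, was higher by 2.03 in Vav-Etv2 mice (limma adjusted p = 0.0317) and differed by 1.58 in control mice (limma adjusted p = 0.0522). Cebpe, a factor of late granulocyte differentiation, differed by -5.96 in Vav-Etv2 mice and -4.82 in control mice, and the Myc antagonist Mxd1 by -4.81 in Vav-Etv2 mice and -4.80 in control mice, all lower in KSL cells. Trp53, which encodes p53, was higher by 3.97 in KSL cells of control mice, and differed by 1.41 in Vav-Etv2 mice (limma adjusted p = 0.165). For Vav-Etv2 against control no regulator passed. The list's median in KSL cells was -0.35, and -0.0024 without Vav-Etv2 KSL replicate 1. Foxo1, a factor known to raise Cdkn1b, differed by 1.22 in KSL cells (limma adjusted p = 0.617) and 0.99 in Gr cells (limma adjusted p = 1.00). Trp53 differed by -1.45 in KSL cells (limma adjusted p = 0.764) and 1.11 in Gr cells (limma adjusted p = 1.00).

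Of 19 other p53 targets 18 were measured, and 2 were higher and 2 lower in KSL than in Gr cells of Vav-Etv2 mice, and 2 higher and 5 lower in control mice. These shares lay near those of all features, 24.3% in Vav-Etv2 mice and 34.7% in control mice. Their median difference was 0.00 in Vav-Etv2 mice, against -0.10 over all features, and -0.26 in control mice, against -0.13. With the array labelled Gr control 2 left out the counts were 3 higher and 3 lower in Vav-Etv2 mice (31.4% of all features called) and 3 higher and 4 lower in control mice (40.4%). Without Vav-Etv2 KSL replicate 1 they were 2 higher and 1 lower in Vav-Etv2 mice (9.66%). The death receptor gene Fas was lower in KSL cells, with differences of -4.35 in Vav-Etv2 mice and -5.24 in control mice. Mdm2, which marks p53 for destruction, was lower with -1.50 in Vav-Etv2 mice and -1.69 in control mice. The stress protein gene Sesn1 was higher by 2.44 in Vav-Etv2 mice and 2.08 in control mice, and Phlda3, an inhibitor of Akt, by 3.74 in Vav-Etv2 mice and 4.93 in control mice, where 1 of the 2 Gr arrays was not well above background for Phlda3. None of the 25 proliferation genes, all of them measured, was called in any comparison with all 8 arrays. Of them 4 were higher in KSL than in Gr cells of control mice once the array labelled Gr control 2 was left out (20.1% of all features were), and 1 in Vav-Etv2 mice with quantile normalization (12.1%). In KSL cells all 25 had positive Vav-Etv2 minus control differences with a median of 0.27, against 0.00 over all features, and the smallest p belonged to Plk1, a mitotic kinase, at 0.44 (limma adjusted p = 0.957). Under the other scalings all 25 stayed positive, with medians from 0.25 to 0.32, and without Vav-Etv2 KSL replicate 1 there were 23. In Gr cells 13 were positive, with a median of 0.01. With the array labelled Gr control 2 left out, 25 were positive, with a median of 0.41. Vav-Etv2 Gr replicates 1 and 2 are then set against Gr control 1 alone, so the gap between replicate numbers enters that value. Its part was not tested.

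The features whose levels followed each member most closely over the 8 arrays were found by Pearson's r, as a description, since the arrays share 2 cell types and 1 slide. For Cdkn2d they were Alox5, a leukotriene enzyme of granulocytes, and Zmpste24 (r = 1.00 for both, rounded), and for Ccnd3 they were Coa4 (0.999) and Sgk1 (0.998). Cdkn1b was followed by Zkscan6 (0.997) and the kinase gene Stk17b (0.996), and Cdkn2c by Camp, a granule protein of neutrophils (0.985), and the histamine enzyme Hnmt (0.984). Ccnd2 was followed by Wdr31 (0.998) and Mn1 (0.997), Ccnd1 by H2-Ob, an MHC class II related gene of B cells (0.993), and Cnrip1 (0.991), and Cdkn1a by Tmem160 (0.965) and Afg1l (0.959). Cdkn2a and Cdkn2b were well above background on too few arrays for this comparison.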

How the data were processed

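The authors' per-array files give spot intensity from Agilent Feature Extraction, version 10.7.3.1 per the file headers and 10.7 per the submitters' processing notes, and the processed signal used here is background-subtracted. The deposited quality marks are other values, 0 or 1 per spot. The deposited value table holds log2 values centred by the authors within each cell type. Its recomputed values lay within 0.01 for 99.8% of entries, and it served as an alternative for Vav-Etv2 against control only.

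Non-uniform spots were dropped, spots of a probe averaged, and log2 signals had the array's 75th percentile subtracted. The probe with the highest mean among those passing the filter stood for its gene. limma 3.58.1 in R 4.3.3 (package data.table, version 1.17.8, for reading) was fitted to all 8 arrays with 1 coefficient per group, 4 residual and 2.77 prior degrees of freedom. The code was tested on simulated data. Same-numbered arrays deviated together in Gr cells (r = 0.658 over features) but not in KSL cells (r = 0.0681). The main fit did not take the replicate numbers as pairs, so the gap shared by the Gr arrays stays in its residual spread. Fits with a term for the replicate numbers were run as alternatives. The number of arrays limits the precision.

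All members and all their probes are reported. From each list, genes were named by rule: up to 6 called genes with the smallest adjusted p per comparison, or the 2 smallest p where none was called. Cdkn2a, well above background on no Gr array, is left out of the KSL against Gr counts, a choice made after its values were seen. Cdk4, Bmi1, Rb1, Myc and Trp53 are also quoted outside that rule in some comparisons, chosen after their values were seen. The members and lists were chosen with earlier results of these data known.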

Additional observations from a re-analysis of the deposited data

Results flagged for a closer look

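Cdkn2b took part in no test, because neither of its probes passed the filter. Its probe on mm9 chromosome 4 at 88952276 to 88952335 nevertheless read -1.70, well above background, in Vav-Etv2 KSL replicate 1. It read -6.60 in Vav-Etv2 KSL replicate 2 and -6.23 and -6.58 in the KSL controls, none of them well above background. On the same array the neighbouring gene Cdkn2a had its highest level, -0.80. That array also had the low granulocyte marker sum of 244, against 1517 to 1632 on the other KSL arrays. Its endothelial marker sum was 52.2, against 10.6 to 15.01, and its megakaryocyte marker sum 144.5, against 37.5 to 74.0. The part of these cells in the Cdkn2b signal was not tested. The other Cdkn2b probe read -6.38 there, not well above background, so the signal rests on 1 probe and 1 array.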

How the results depend on the processing

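Single-member differences were recomputed under 23 other settings. Of the values, 705 kept direction and side of the threshold, 23 lost a call, 8 gained one and 27 changed sign, and the cause was not tested. No member was called for Vav-Etv2 in any of these settings. The number of members called between KSL and Gr cells was 3 to 5 in Vav-Etv2 mice and 3 to 6 in control mice. Over these settings the number of all features called also moved, from 2244 to 11334 in Vav-Etv2 mice and from 2199 to 12843 in control mice. Leaving out single arrays gave Vav-Etv2 minus control ranges in KSL cells of -0.15 to 0.43 (Cdkn1b), -0.76 to 2.64 (Cdkn2a) and -0.17 to 0.20 (Cdkn2d). In Gr cells the ranges were -0.19 to 1.13 (Cdkn1a), -0.85 to 0.43 (Cdkn1b), -0.81 to 1.60 (Cdkn2a), -0.015 to 0.11 (Cdkn2c), -0.42 to 0.28 (Cdkn2d) and -0.47 to 0.35 (Ccnd3). For the difference between the effects they were -0.29 to 0.99 (Cdkn1b), -1.16 to 2.25 (Cdkn2a) and -0.26 to 0.44 (Cdkn2d), and for KSL minus Gr in Vav-Etv2 mice -0.12 to 0.45 (Cdkn1a). Cdkn2d in KSL cells was -0.0060 with normexp background and -0.025 with quantile normalization. With the replicate block, Cdkn1a lost its call between KSL and Gr cells of control mice (limma adjusted p = 0.0516). Cdkn2a gained a call between KSL and Gr cells in both genotypes, which counts toward the range of 3 to 5 in Vav-Etv2 mice. Cdkn2a passed the filter only through KSL replicate 1 of each genotype. It was well above background on no Gr array, so nothing is read from its calls. A term for the Gr replicate numbers gave Cdkn1b a call in Vav-Etv2 mice (limma adjusted p = 0.0106). Over all features the counts called were 4 in KSL cells (0 to 69 in other settings), 2 in Gr cells (0 to 2), 1 for the difference (0 to 5), 5637 for KSL against Gr in Vav-Etv2 mice (2244 to 11334) and 8065 in control mice (2199 to 12843). The gene list counts without the array labelled Gr control 2, without Vav-Etv2 KSL replicate 1 and under other scalings were added after seeing the data. A sample left alone in its group by such a step is assumed to vary like the other groups. Signal near background limits Cdkn2a and Cdkn2b.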
